A study of Mus musculus with 48 samples.

Results

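The comparison covered 6 of the 48 tumors of the series. They were B16-D5 melanomas grown in mice that lack inducible nitric oxide synthase (iNOS KO), 3 from mice given a control IgG antibody and 3 from untreated mice. B16-D5 is a subclone of the mouse melanoma line B16 and was implanted under the skin of the flank 8 days before treatment. The mice were 4 weeks old at purchase and were kept for 2 more weeks. WT mice, used below for comparison, were C57BL/6J. IgG was injected at 250 µg in 200 µL on days 0 and 3, the untreated mice received no injection, and the tumors were taken at day 7. Both groups lack host iNOS, while the deletion is in the host and not in the implanted melanoma cells. The untreated group had no mock injection, so an effect of the antibody and an effect of being injected cannot be told apart. RNA of whole tumors was sequenced, and levels below are given as CPM, the reads of a gene relative to all reads assigned to genes in that library, scaled by the trimmed mean of M values.

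IgG is the control arm against which anti-PD-1, an antibody that blocks a brake on T cells, is usually read. An antibody without a target in the tumor can still bind Fc receptors on macrophages, neutrophils and natural killer cells. iNOS, made from the gene Nos2, produces nitric oxide in activated macrophages and is itself induced by interferon gamma, with the transcription factor IRF1 taking part. The same cytokine induces antigen-processing genes, guanylate-binding proteins and the PD-1 ligand PD-L1, so the interferon genes are a usual reading of T cell activity in this tumor model.

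The 6 libraries were placed by their titles. In the other label fields the genotype reads WT in all 6, the treatment matches the title in 1, and the time reads day 7 in 0, and day 7 comes from the study's methods. Melanocyte genes were high in every tumor, with a mean log2 CPM over 20 pigment genes of 7.89 to 8.21. The reads assigned to genes numbered 23267834, 29668565 and 39675612 in untreated tumors 1, 2 and 4 and 34215906 to 40959309 after IgG. Untreated tumor 1 stood apart among the 6. There 1504 olfactory, vomeronasal and taste receptor genes, which tumors should not use, summed to 871 CPM. They summed to 64.4 and 76.2 CPM in the other untreated tumors, and to 12.8 to 41.6 CPM after IgG. Among the other 12 day 7 libraries, used below as a reference, WT anti-PD-1 tumors 3 and 4 had still higher sums, 2832 and 1175 CPM. Their reads numbered 11625862 and 18797177, and both libraries are part of the fit. The log2 values of untreated tumor 1 correlated at 0.953 to 0.957 with those of the other 5 libraries, which correlated at 0.978 to 0.991 with each other. Of the 30837 genes tested, 4995 were at least 10 times higher in untreated tumor 1 than in each of the other 5, and 80 of those had a mean of at least 1 CPM.

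Nos2 (chr11:78920787-78960254, GRCm38) was at 4.21, 2.41 and 4.98 CPM in the untreated iNOS KO tumors and at 2.47, 5.92 and 5.83 CPM after IgG. The groups overlapped, and the difference was 0.29 ± 0.57 (log2 fold change ± SE, adjusted p = 0.787, edgeR). The other 12 libraries of the second experiment, WT tumors included, lay between 1.15 and 7.28 CPM. The total of this gene therefore did not separate KO from WT hosts, and which exons the KO allele lacks is not given in the sources used here.

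Between IgG and untreated iNOS KO tumors, 58 of 30837 genes (0.188%) were lower after IgG and 0 were higher at an adjusted p under 0.05 (edgeR quasi-likelihood test, Benjamini-Hochberg). DESeq2 called 664 lower and 46 higher. At an unadjusted p under 0.05 there were 3907 lower genes (12.7%) and 911 higher genes (2.95%), and 2579 of the lower ones had a mean under 1 CPM. The median log2 fold change was -0.45 over all genes and 0.04 over the 15489 genes with at least 1 CPM. Among those 15489 genes, 1328 (8.57%) were lower and 890 (5.75%) higher before adjustment. When only the 6 libraries were fitted, 18805 genes were tested. The shares of all genes given beside the lists below include the genes under 1 CPM. For lists with all members at 1 CPM or more, such as the mitotic, MHC class I and type I interferon lists, 8.57% and 5.75% are the nearer comparison. With the sensory receptor level as a covariate 0 genes were called in either direction (848 higher and 1183 lower unadjusted), whereas 104 lower and 4 higher genes were called without untreated tumor 1. The count of lower genes ran from 2 without IgG tumor 2 to 274 without untreated tumor 4, and was 6 without IgG tumor 1, 21 without IgG tumor 3 and 120 without untreated tumor 2.

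Among the 58 genes lower after IgG were 8 cytosolic ribosomal protein genes, 6 of the respiratory chain, 4 of the proteasome, 2 of the mitochondrial ribosome and 2 of mitochondrial import, families that were chosen after the values were seen. Their log2 fold changes ran from -0.77 for Nubp1, an iron-sulfur cluster assembly factor, to -2.70 for the processed pseudogene Gm11478, with a median of -1.32. In all 58 the untreated and IgG groups did not overlap, a pattern found in 2939 genes (9.53%) in this direction and in 2474 genes (8.02%) in the other; the test that chose these genes used the same values. In 46 of the 58, all 3 untreated iNOS KO tumors lay above all 12 other tumors of the second experiment. In 53 the IgG tumors lay inside the range of those 12. The 12 include WT anti-PD-1 tumors 3 and 4, whose receptor sums exceeded that of untreated tumor 1. Averaged over the 58 genes, the mean log2 CPM was 5.85 to 6.42 in untreated iNOS KO tumors, 4.84 to 4.93 after IgG, 4.70 to 4.92 in untreated WT tumors and 4.57 to 4.68 in WT tumors given IgG. The genes were chosen for high untreated iNOS KO values against IgG, so these levels are a description.

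Ribosomal protein genes supplied the most abundant of these transcripts. Rps12, a protein of the small ribosomal subunit (chr10:23785183-23787275), was at 1629, 966 and 578 CPM in untreated tumors 1, 2 and 4 and at 258, 294 and 330 CPM after IgG. All 3 untreated values lay above the IgG values, and the fall was -1.85 ± 0.31 on the log2 scale (adjusted p = 0.0218). Rpl34, of the large subunit (chr3:130726831-130730398), stood at 346, 315 and 170 CPM without treatment and at 82.9, 93.6 and 93.7 CPM with IgG. It had one of the lowest adjusted p-values of the table (0.0101) at a log2 fold change of -1.62 ± 0.24. Rps20 (-1.24 ± 0.23, adjusted p = 0.0328) and Rps14 (-1.19 ± 0.23, adjusted p = 0.0354) fell as well, while Rps24 (-1.38 ± 0.30, adjusted p = 0.0643) and Rpsa (-0.81 ± 0.19, adjusted p = 0.0887) did not pass. Over the 84 cytosolic ribosomal protein genes tested, 8 passed (0.188% of all genes), 54 were lower and 0 higher before adjustment (12.7% and 2.95% of all genes), and the median was -0.67, against -0.11 in WT tumors. These genes have near-identical processed copies in the genome, and 2 such copies, Rps15a-ps6 (-1.67 ± 0.29) and Rpl10a-ps1 (-1.94 ± 0.37), were themselves among the 58, so how the reads were divided between gene and copy is uncertain.

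Genes of the respiratory chain formed the next group. Ndufa7, a subunit of complex I (chr17:33824572-33838317), was at 57.9, 56.1 and 43.3 CPM in untreated tumors and at 19.1, 21.4 and 18.5 CPM after IgG. Its groups lay far apart compared with their spread, with a log2 fold change of -1.42 ± 0.20 (adjusted p = 0.0101). Ndufa4, now counted with complex IV, stood at 579, 630 and 300 CPM in untreated tumors and at 143, 153 and 150 CPM in IgG tumors (-1.76 ± 0.32, adjusted p = 0.0272). Cytochrome c oxidase subunits Cox7b (-1.64 ± 0.30, adjusted p = 0.0301), Cox7c (-1.31 ± 0.24, adjusted p = 0.0272) and Cox4i1 (-0.98 ± 0.20, adjusted p = 0.0450) fell, as did the assembly factor Cox19 (-1.03 ± 0.19, adjusted p = 0.0351). Uqcrq of complex III was at -0.95 ± 0.20 and did not pass (adjusted p = 0.0588). Of 78 nuclear genes of the chain and ATP synthase, 6 passed, against 0.188% of all genes. Before adjustment 41 were lower and 1 higher, against 12.7% and 2.95% of all genes. Their median was -0.46, against -0.28 in WT. In WT tumors 20 of the 78 were lower and 0 higher before adjustment, against 2.29% and 5.54% of all genes, so a shift in this direction was also seen there.

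Other small proteins of the mitochondrion and of RNA and protein turnover moved the same way. Hspe1, the co-chaperonin of the mitochondrial matrix, was at 624, 566 and 325 CPM in untreated tumors and at 152, 160 and 166 CPM after IgG (-1.66 ± 0.28, adjusted p = 0.0218). Snrpe, a core protein of the spliceosome, was at 40.1, 88.1 and 21.5 CPM without treatment and between 12.3 and 12.8 CPM in all 3 IgG tumors (-2.00 ± 0.32, adjusted p = 0.0182). The untreated values of Snrpe varied widely among themselves while the IgG values hardly varied. The mitochondrial ribosomal protein Mrpl33 (-1.58 ± 0.26), the import subunits Tomm7 (-1.32) and Tomm20 (-1.11), the inner membrane peptidase Immp1l (-1.61 ± 0.28), the replication protein Rpa3 (-1.61 ± 0.31) and the microtubule nucleation factor Mzt1 (-0.90) were also among the 58. So were the 20S proteasome subunit Psma3, at 89.7, 107 and 91.5 CPM in untreated and 47.1, 48.1 and 42.8 CPM in IgG tumors (-1.06 ± 0.16, adjusted p = 0.0101), and the non-coding RNAs Zfas1 (-1.56) and Rny1 (-2.16 ± 0.44, adjusted p = 0.0497). Of 50 proteasome genes 4 passed, and of 77 mitochondrial ribosomal protein genes 2 passed, against 0.188% of all genes. Before adjustment 20 of the 50 and 27 of the 77 were lower, and 1 of each was higher. Of all genes, 12.7% were lower and 2.95% higher. The medians were -0.36 for the proteasome and -0.33 for the mitochondrial ribosome, against -0.13 and -0.23 in WT. In WT tumors 6 of the 50 and 15 of the 77 were lower and 0 of each higher, against 2.29% and 5.54% of all genes.

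**Figure D1:**
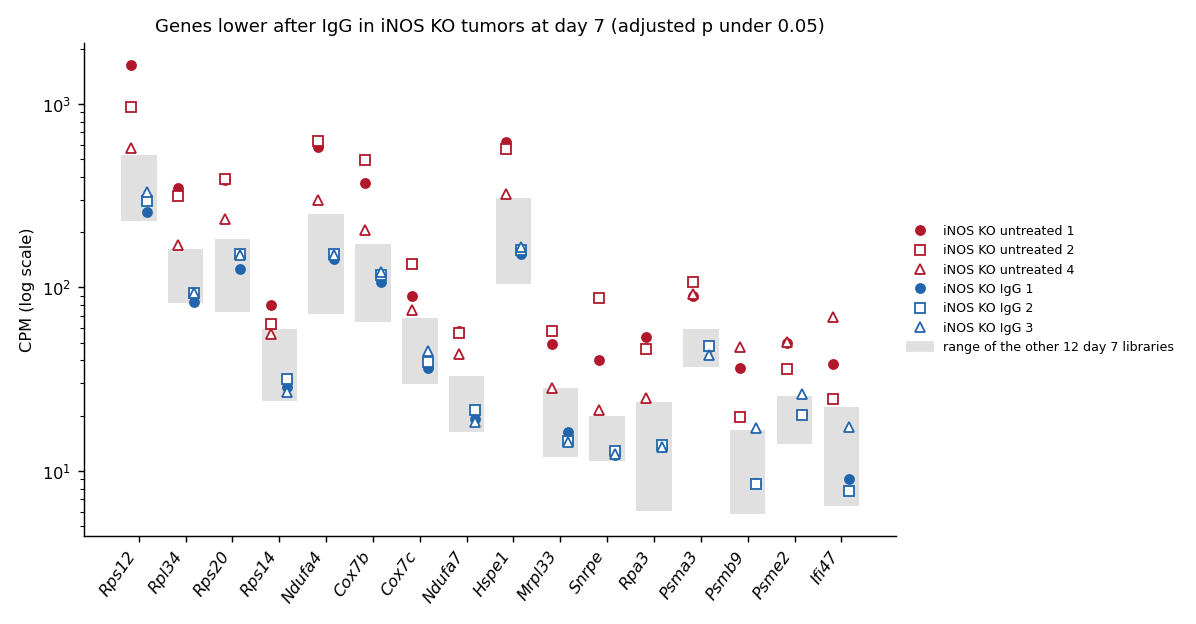
CPM of 16 of the 58 genes lower after IgG, on a log axis, with one point per iNOS KO tumor (red, untreated; blue, IgG) and a grey bar for the range of the other 12 libraries of the second experiment. The red points lie above the grey bars, apart from the lowest ones of Rps14 and Mrpl33, and the blue points lie inside the bars, apart from the highest ones of Psmb9 and Psme2.

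Many of the 58 genes were short. Of the 51 with a coding sequence, 43 (84.3%) were shorter than 600 coding bases, against 12.2% of the 13233 coding genes tested with at least 1 CPM. Their median coding length was 357 bases, against 1428 bases. Over all coding genes of at least 1 CPM, the median log2 fold change rose from -0.52 in 244 genes of up to 300 coding bases, through -0.22 in 1394 genes of up to 600 and -0.02 in 3664 genes of up to 1200, to 0.11 in 4833 genes of up to 2400 and 0.21 in 3098 longer genes. In WT tumors the same medians lay between -0.11 and 0.02. Against the median of the other 12 libraries, the shortest class stood 0.50, 0.40 and 0.46 log2 units higher in untreated tumors 1, 2 and 4 and 0.00 to 0.10 higher in the IgG tumors, and the longest class stood 0.38, 0.13 and 0.16 lower in the untreated tumors. With a smooth trend on transcript length removed from each library, 8 genes passed, all of them among the 58: Rpl34, Ndufa7, Psma3, Mrpl33, Mzt1, Zfas1, Gm11478 and Dnajc15, a regulator of mitochondrial respiration. Transcript length is not coding length. Dnajc15 has 6193 transcript and 447 coding bases, Mzt1 2240 and 234, and Mrpl33 2178 and 321, while Rpl34 (495 and 353) and Ndufa7 (528 and 339) are short in both. This setting therefore cannot show which calls would hold with a trend on coding length removed. The part of length, RNA integrity and library preparation in the calls was not tested.

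**Figure D2:**
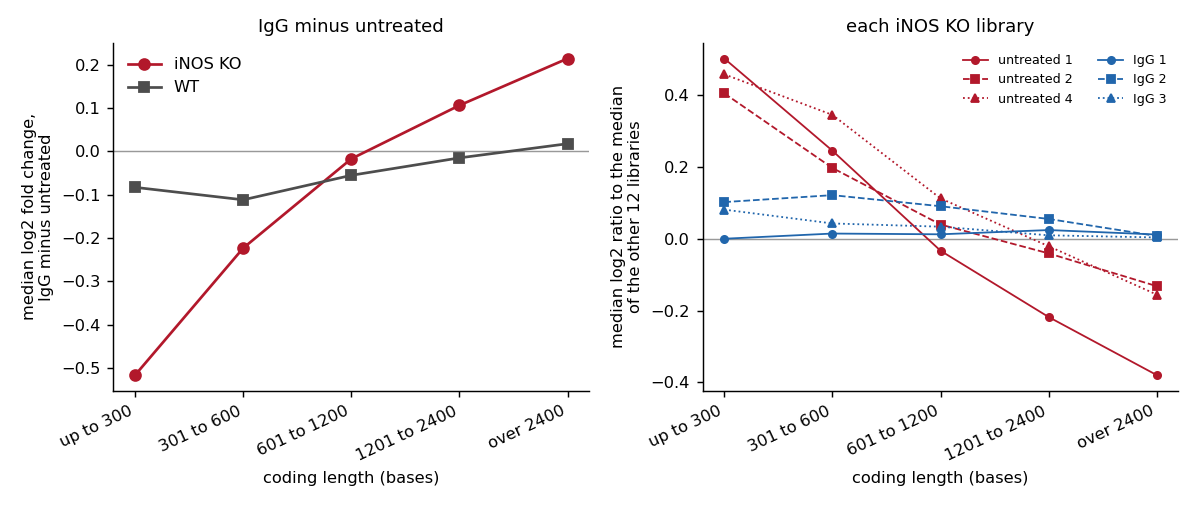
Median log2 values of coding genes in 5 classes of coding length. Left, IgG minus untreated in iNOS KO (red) and WT (grey) hosts; right, each iNOS KO library against the median of the other 12 libraries. The 3 untreated iNOS KO libraries slope down with length, from 0.40 to 0.50 in the shortest class, and the 3 IgG libraries stay between 0.00 and 0.12.

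Interferon gamma response genes were lower after IgG as a group. All 34 listed genes had a log2 fold change below 0, with a median of -1.03, and without adjustment 22 were lower and 0 higher at p under 0.05 (all genes tested, 12.7% and 2.95%). Only the proteasome genes Psmb9 and Psme2 of this list passed the adjusted test. The mean log2 CPM of the 34 genes was 4.34 to 5.56 in untreated iNOS KO tumors and 3.39 to 4.45 after IgG, so the groups overlapped slightly. It was 3.36 to 3.46 in iNOS KO tumors given anti-PD-1, 3.23 to 3.59 in untreated WT tumors, 3.39 to 4.31 in WT tumors given IgG and 3.64 to 4.67 in WT tumors given anti-PD-1. Untreated tumor 4 had the highest level and carried much of the count: without it 9 of the 34 were lower and the median was -0.53, while without untreated tumor 1 the count was 27 and the median -1.05. The list's median coding length was 1245 bases. With the trend on transcript length removed the median log2 fold change was -1.05. Of the list's genes 0 passed in that setting (edgeR, adjusted p = 0.111 for Psmb9 and 0.139 for Psme2).

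Psmb9, a catalytic subunit of the immunoproteasome that interferon gamma induces (chr17:34181987-34187764), was at 36.5, 19.7 and 47.1 CPM in untreated tumors and at 8.55, 8.44 and 17.03 CPM after IgG. The lowest untreated value lay just above the highest IgG value, and the fall was -1.60 ± 0.32 (adjusted p = 0.0440). Psme2, a subunit of the PA28 proteasome activator (chr14:55587441-55591113), was at 49.95, 35.9 and 50.7 CPM in untreated tumors and at 20.4, 20.3 and 26.2 CPM in IgG tumors (-1.03 ± 0.19, adjusted p = 0.0272). Ifi47, an interferon-induced GTPase outside the list (chr11:49076587-49096974), was at 38.2, 24.7 and 69.3 CPM in untreated tumors and at 9.05, 7.75 and 17.3 CPM with IgG (-1.96 ± 0.37, adjusted p = 0.0354). These 3 genes fell beyond the spread of the replicates, whereas the next ones did not pass. Cd274, which encodes PD-L1 (chr19:29367455-29388095), was at 33.04, 30.1 and 64.8 CPM untreated and at 17.3, 17.1 and 22.1 CPM after IgG, without overlap (-1.18 ± 0.27, adjusted p = 0.0846). Irf1, the transcription factor upstream of many of these genes, was at 52.0, 41.1 and 104 CPM and at 26.5, 23.5 and 46.1 CPM (-1.04 ± 0.32, adjusted p = 0.235). Its highest IgG value lay above its lowest untreated value.

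The GTPases that interferon gamma induces against intracellular parasites were the most uniform family in sign, with 17 of 17 members below 0 and a median of -1.54. At an unadjusted p under 0.05 13 were lower, and 1 passed (12.7% and 0.188% of all genes). The groups did not overlap in 2 of the 17, a share near the 9.53% of all genes. Tgtp2 was at 101, 40.9 and 186 CPM without treatment and at 22.5, 10.2 and 53.1 CPM with IgG (-1.93 ± 0.51, adjusted p = 0.137, edgeR). How reads were divided between it and its near-identical neighbour Tgtp1 is uncertain. Igtp was at 52.6, 40.6 and 150 CPM and at 22.5, 11.64 and 45.7 CPM (-1.61 ± 0.44, adjusted p = 0.156). In both genes untreated tumor 4 was the highest of the 6 and IgG tumor 2 the lowest. The chemokines that attract T cells through CXCR3 showed the same order without passing: Cxcl9 differed by -1.64 (adjusted p = 0.296) and Cxcl10 by -0.69 (adjusted p = 0.315).

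The sequences before the starts of these genes are shown because the elements known to carry the interferon signal can be read in them. The GAS, the gamma-activated sequence, was searched as TTCNNNGAA, and interferon regulatory factors and the type I complex bind the ISRE, searched as GAAANNGAAA and its reverse complement TTTCNNTTTC. The windows are the 250 bases before each RefSeq start (GRCm38.p6), available for 23 of the 34 list genes. Of those 23, 15 (65.2%) held at least 1 of the 2 elements. The share was 11.1% of all 27025 genes with a window and 9.99% of the tested ones of at least 1 CPM. The list consists of known interferon gamma response genes, so a high share would hold whatever happened in these tumors. It is not a result of this comparison. A GAS was present in 39.1% and an ISRE in 52.2% of the 23, against 8.13% and 3.46% of all. The 6 list genes with the lowest p among those that held an element are printed over the last 110 bases before the start, 5′ to 3′, on the strand of the gene, with the matches in capitals.
Psmb8, chr17:34198085-34198194 (+): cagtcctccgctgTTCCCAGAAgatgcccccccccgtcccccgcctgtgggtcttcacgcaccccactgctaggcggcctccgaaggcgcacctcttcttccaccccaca
Tgtp2, chr11:49064213-49064322 (-): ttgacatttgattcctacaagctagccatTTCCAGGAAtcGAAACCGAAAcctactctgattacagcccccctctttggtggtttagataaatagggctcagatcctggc
Igtp, chr11:58199446-58199555 (+): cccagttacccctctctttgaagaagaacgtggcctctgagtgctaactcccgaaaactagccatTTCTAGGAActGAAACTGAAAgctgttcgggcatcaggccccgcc
Irgm2, chr11:58214867-58214976 (+): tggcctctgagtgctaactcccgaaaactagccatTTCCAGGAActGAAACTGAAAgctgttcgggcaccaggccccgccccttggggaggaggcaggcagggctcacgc
Irgm1, chr11:48871421-48871530 (-): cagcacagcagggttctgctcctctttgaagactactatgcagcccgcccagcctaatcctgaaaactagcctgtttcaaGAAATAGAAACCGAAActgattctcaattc
Irf1, chr11:53769904-53770013 (+): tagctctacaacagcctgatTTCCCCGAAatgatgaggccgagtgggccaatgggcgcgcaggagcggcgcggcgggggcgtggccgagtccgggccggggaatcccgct

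In Tgtp2, Igtp and Irgm2 the GAS is followed within a few bases by an ISRE, and in Irgm1 a pair of ISRE matches overlap. Psmb8 (-1.03 ± 0.25, adjusted p = 0.0997), Irgm1 (-0.78, adjusted p = 0.229) and Irgm2 (-0.97, adjusted p = 0.270) were lower without passing. No match was found in the windows of Psmb9, Psme2, Ifi47 and Cd274, which says only that these letters are not in the 250 bases. Among the 42 of the 58 called genes with a window, 3 held a GAS and 0 an ISRE (7.14% with either), against 11.1% of all genes.

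**Figure D3:**
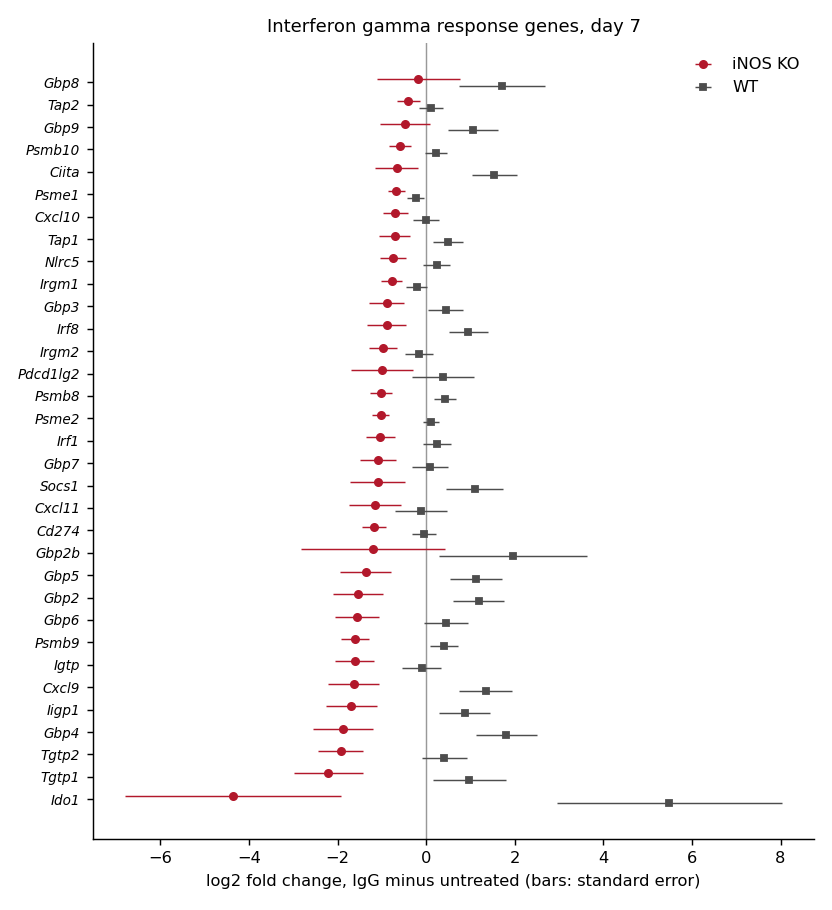
Log2 fold change, IgG minus untreated, of 33 of the 34 interferon gamma response genes in iNOS KO (red circles) and WT hosts (grey squares) at day 7, with standard errors. All red points lie below 0, and 27 of the 33 grey points lie above it.

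Genes induced by type I interferon were lower to a smaller extent. Of 40 listed genes, 11 were lower and 0 higher before adjustment (12.7% and 2.95% of all genes), with a median of -0.33, and 0 passed (edgeR). Without untreated tumor 4, 5 were lower and the median was -0.14. Usp18, which shuts off type I receptor signaling, was at 54.5, 48.2 and 58.3 CPM untreated and at 33.9, 31.1 and 41.2 CPM with IgG (-0.60 ± 0.15, adjusted p = 0.117). Its groups did not overlap, nor did those of Ifit3 (-1.02 ± 0.27, adjusted p = 0.139), Ifit1 (-0.77 ± 0.21, adjusted p = 0.155) and Rsad2 (-0.74 ± 0.24, adjusted p = 0.263), all antiviral effectors. Of the transcription factors upstream, Irf3 and Irf7 did not pass: Irf3 differed by 0.21 (adjusted p = 0.445) and Irf7 by 0.06 (adjusted p = 0.959). Ifng had 10, 0 and 14 reads in the untreated tumors and 0, 4 and 14 after IgG. Ifnb1 had 1 read in the 6 libraries together, so neither interferon could be compared at this depth.

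T cell transcripts were at low levels. Cd8a, of cytotoxic T cells, was at 1.55, 1.56 and 1.02 CPM untreated and at 0.35, 0.74 and 1.67 CPM after IgG (-0.57, adjusted p = 0.736). The groups overlapped. Of 26 T cell genes, 3 were lower and 0 higher without adjustment, a share near the 12.7% of all genes, and among them Cd27, a costimulatory receptor, was at 2.29, 1.63 and 2.09 CPM and then at 0.38, 0.53 and 0.70 CPM (-1.88 ± 0.65, adjusted p = 0.289). The list's median was -0.99, but -0.57 with 1 gene lower without untreated tumor 1 and -0.09 with the sensory receptor covariate. In whole tumors fewer cells of a type and less RNA per cell cannot be told apart. MHC class I and peptide-loading genes had 2 of 14 lower, also a share near that of all genes, with the nonclassical class I gene H2-M3 at -1.34 ± 0.42 (adjusted p = 0.240), and MHC class II genes 0 of 9.

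In the other direction, genes of fibroblasts and of the extracellular matrix were higher after IgG without any of them passing. Of 26 fibroblast and collagen genes, 22 were higher and 0 lower before adjustment (all genes, 2.95% and 12.7%), with a median of 1.54 in iNOS KO and 0.94 in WT hosts. Their mean log2 CPM was 4.94 to 5.39 in untreated iNOS KO tumors and 6.15 to 6.86 after IgG, without overlap. The WT tumors spanned 5.36 to 6.69 untreated and 6.45 to 7.48 with IgG. With the sensory receptor covariate 2 of the 26 were higher and the median was 0.80, whereas without untreated tumor 1 the count stayed at 22 and the median was 1.43. When only the 6 libraries were fitted, 19 of the 26 passed.

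Sulf1, an enzyme that trims heparan sulfate at the cell surface (chr1:12692277-12861192), had the lowest adjusted p of any higher gene (0.0522). It was at 7.15, 5.42 and 3.67 CPM in untreated tumors and at 14.1, 34.9 and 27.5 CPM after IgG (2.24 ± 0.47), and the other 12 tumors lay between 5.76 and 34.7 CPM. Prg4, a lubricating proteoglycan, stood at 4.82, 5.73 and 4.85 CPM and then at 19.1, 41.6 and 35.7 CPM (2.65 ± 0.66, adjusted p = 0.112). The groups of both genes were well separated, and the IgG values varied more than the untreated ones. Fbn1, the main protein of microfibrils (chr2:125300594-125507993), was at 87.5, 80.6 and 95.9 CPM and then at 282, 403 and 447 CPM (2.10 ± 0.68, adjusted p = 0.255). Periostin, Postn (1.51 ± 0.48, adjusted p = 0.252), the matrix metalloprotease Mmp3 (2.10 ± 0.64, adjusted p = 0.227) and the fibroblast receptor Pdgfra (0.98 ± 0.31, adjusted p = 0.251) had the same order of groups. So had the matrix protein Thbs3 (1.42 ± 0.33, adjusted p = 0.0852), the intermediate filament protein Synm (1.24 ± 0.29, adjusted p = 0.0860), the pericyte proteoglycan Cspg4 (0.53 ± 0.14, adjusted p = 0.150), the endothelin receptor Ednra (1.20 ± 0.30, adjusted p = 0.121), and Creb3l1, a transcription factor of collagen secretion (1.76 ± 0.49, adjusted p = 0.164).

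Higher genes outside the matrix were led by signaling genes. The kinase Sik1 was at 71.4, 88.6 and 83.0 CPM in untreated tumors and at 165, 172 and 141 CPM after IgG (0.97 ± 0.21, adjusted p = 0.0639). Grb10, an adaptor that dampens insulin receptor signaling, was at 9.64, 7.89 and 8.20 CPM and then at 21.3, 35 and 31.1 CPM (1.77 ± 0.39, adjusted p = 0.0697). Both had tight untreated groups that did not reach the IgG values. Hsdl1 (0.77 ± 0.19), Elac2, the enzyme that trims the 3′ ends of transfer RNAs (0.65 ± 0.17), Dpysl3 (1.44 ± 0.40) and Gfpt2, of the hexosamine pathway (0.78 ± 0.22), completed the genes named by p, with adjusted p-values from 0.106 to 0.167.

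**Figure D4:**
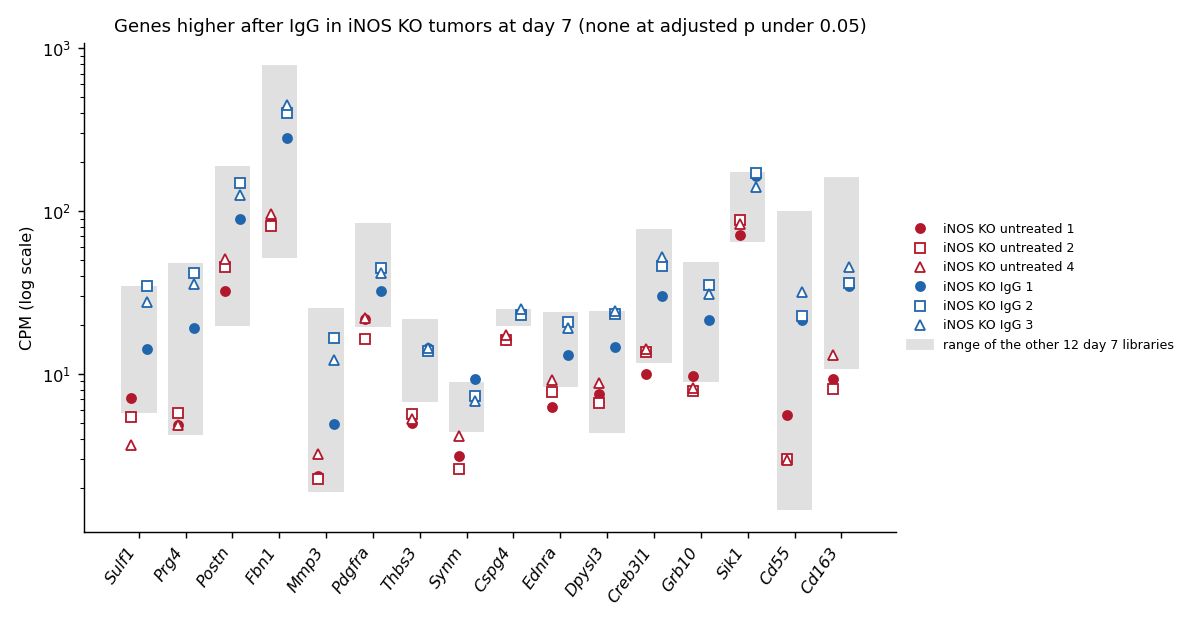
CPM of 16 genes higher after IgG, none of which passed the adjusted test, on a log axis, with one point per iNOS KO tumor (red, untreated; blue, IgG) and a grey bar for the range of the other 12 libraries of the second experiment. The blue points lie above the red ones in each gene, and the red points sit at the lower end of the grey bars or below it, as in Synm and Cspg4.

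Macrophage and complement genes had medians above 0 in both hosts. Of 13 complement genes, 4 were higher and 0 lower without adjustment, against 2.95% and 12.7% of all genes (median 1.15 in iNOS KO and 1.32 in WT). Of 24 macrophage and monocyte genes 1 was higher, a share near that of all genes, and 0 lower (median 0.63 and 0.99). Without untreated tumors 1, 2 and 4 in turn, 3, 2 and 7 of the macrophage genes were higher. With the sensory receptor covariate 1 complement gene was higher and the medians in iNOS KO were 0.66 and 0.15. When only the 6 libraries were fitted, 8 of the 13 complement genes were higher before adjustment and 5 passed. In that fit 9 of the 24 macrophage genes were higher and 3 passed, and of all 18805 genes 1449 were higher and 177 passed as higher. The macrophage count therefore depended on which libraries were fitted. Cd55, which protects cells from complement, was at 5.60, 2.98 and 2.97 CPM untreated and at 21.3, 22.7 and 31.6 CPM with IgG (2.72 ± 0.86, adjusted p = 0.247). The scavenger receptor Cd163 of tissue macrophages was at 9.31, 8.10 and 12.99 CPM and then at 34.9, 36.3 and 45.1 CPM (1.93 ± 0.63, adjusted p = 0.257). The groups did not overlap in either gene, and the other 12 tumors ranged from 1.46 to 99.8 CPM for Cd55 and from 10.8 to 161 CPM for Cd163. Fc gamma receptor genes, through which IgG acts on these cells, had a median of 0.23 in iNOS KO, with 4 of 6 above 0. Before adjustment 0 were higher and 1 of the 6 was lower, a share near the 12.7% of all genes. The lower gene was Fcgr4, the activating receptor induced by interferon gamma (-1.07 ± 0.39, adjusted p = 0.303, edgeR). It was at 27.9, 12.5 and 31.4 CPM untreated and at 9.49, 8.87 and 15.9 CPM after IgG. The chemokine Ccl7 (-1.18 ± 0.34, adjusted p = 0.195) was lower without overlap, and the cytokine Il33, stored in stromal cells, was higher (2.10 ± 0.71, adjusted p = 0.277).

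Cell cycle, pigment and early response genes differed by small amounts. Of 25 mitotic genes, 5 were higher and 0 lower without adjustment, with a list median of 0.23. Of all genes 2.95% were higher, and 5.75% of those with at least 1 CPM. Among the 5 were the kinase Plk1 (0.62 ± 0.22, adjusted p = 0.302, edgeR) and the kinesin Kif20a (0.49, adjusted p = 0.315). Without untreated tumor 1, 0 of the 25 were higher and the median was 0.13, and with the sensory receptor covariate 0 were higher, 1 was lower and the median was -0.03. Of 23 DNA replication genes, 3 were lower and 1 higher, shares near the 12.7% and 2.95% of all genes. Pcna at -0.44 and Pole at 0.44 were examples of each, and without untreated tumor 1 the counts were 1 and 0. Of 20 pigment genes, 2 were lower and 1 higher, also near the shares of all genes. The ion exchanger Slc24a5 was at 339, 338 and 377 CPM untreated and at 240, 241 and 267 CPM with IgG (-0.49 ± 0.17, adjusted p = 0.276, edgeR). Tyr, the first enzyme of melanin synthesis, was at 464, 436 and 544 CPM and at 405, 434 and 347 CPM. Among 21 early response genes 4 were higher, Klf2 most of them (1.60 ± 0.52, adjusted p = 0.258), against 2 without untreated tumor 1 and 0 with the covariate.

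Single libraries of both groups also stood apart in genes of other tissues, and 1 in a mitochondrial gene. Hair follicle genes were high in untreated tumor 4: Tchh, of the inner root sheath, was at 1.39, 0.75 and 774 CPM in untreated tumors 1, 2 and 4 and at 0.15 to 0.38 CPM after IgG, and Krt71 was at 2.08, 0.17 and 122 CPM and had no reads after IgG. Of 30 keratinocyte and hair genes, 9 were lower and 1 higher without adjustment, against 12.7% and 2.95% of all genes. Without untreated tumor 4 the counts were 6 and 4. Their mean log2 CPM was 0.95, -0.53 and 2.83 in untreated tumors and 1.44, -0.65 and -0.57 after IgG. Skeletal muscle genes were highest in IgG tumor 1. Their mean log2 CPM was 2.23, 0.66 and 3.78 in untreated tumors 1, 2 and 4 and 4.15, 0.56 and 2.18 in IgG tumors 1, 2 and 3. In untreated tumor 2 the mitochondrial mt-Co3 was at 27.9 CPM, against 3.72 and 3.48 CPM in the other untreated tumors and 2.65 to 2.87 CPM after IgG. The part of these levels in the results above was not tested.

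The same step in WT hosts, IgG against untreated, shares no library with the comparison in iNOS KO. There 0 genes passed (edgeR), and before adjustment 1708 were higher (5.54%) and 707 lower (2.29%), 7.83% in all. The difference between the hosts was tested as an interaction and called 0 of 30837 genes (lowest adjusted p = 0.217), with 489 more positive in iNOS KO (1.59%) and 5482 more negative (17.8%) without adjustment. DESeq2 called 12 and 229. The unadjusted counts were 661 and 910 with the sensory receptor covariate, 489 and 985 among genes of at least 1 CPM, and 304 and 2382 without untreated iNOS KO tumor 1. Ifi47 differed by 0.46 ± 0.37 in WT and by -1.96 ± 0.37 in iNOS KO on the log2 scale, a difference of -2.41 ± 0.52 (adjusted p = 0.217, edgeR). For Rpl34 the WT change was -0.01 ± 0.23 and the difference -1.62 ± 0.33, for Ndufa7 -0.11 ± 0.19 and -1.30 ± 0.27, and for Psmb9 0.39 ± 0.32 and -2.00 ± 0.45, all with adjusted p = 0.217. Ifi47, Rpl34, Ndufa7 and Psmb9 were called for their fall in iNOS KO, which enters this difference, so these values are a description. They do not stand for all 58 called genes, of which 46 were below 0 in WT too, with a WT median of -0.22. In WT 8 of the 58 had an unadjusted p under 0.05 (edgeR), against 7.83% of all genes. Of the 34 interferon gamma response genes, the median was 0.42 in WT and -1.03 in iNOS KO, and 22 had a more negative step in iNOS KO at an unadjusted p under 0.05. For the fibroblast and collagen genes that count was 0 in either direction, and no host difference was detectable. Inpp5e, a phosphatase of inositol lipids, had the lowest p among genes with a more positive step in iNOS KO (log2 difference 0.76 ± 0.19, adjusted p = 0.217, edgeR).

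**Figure D5:**
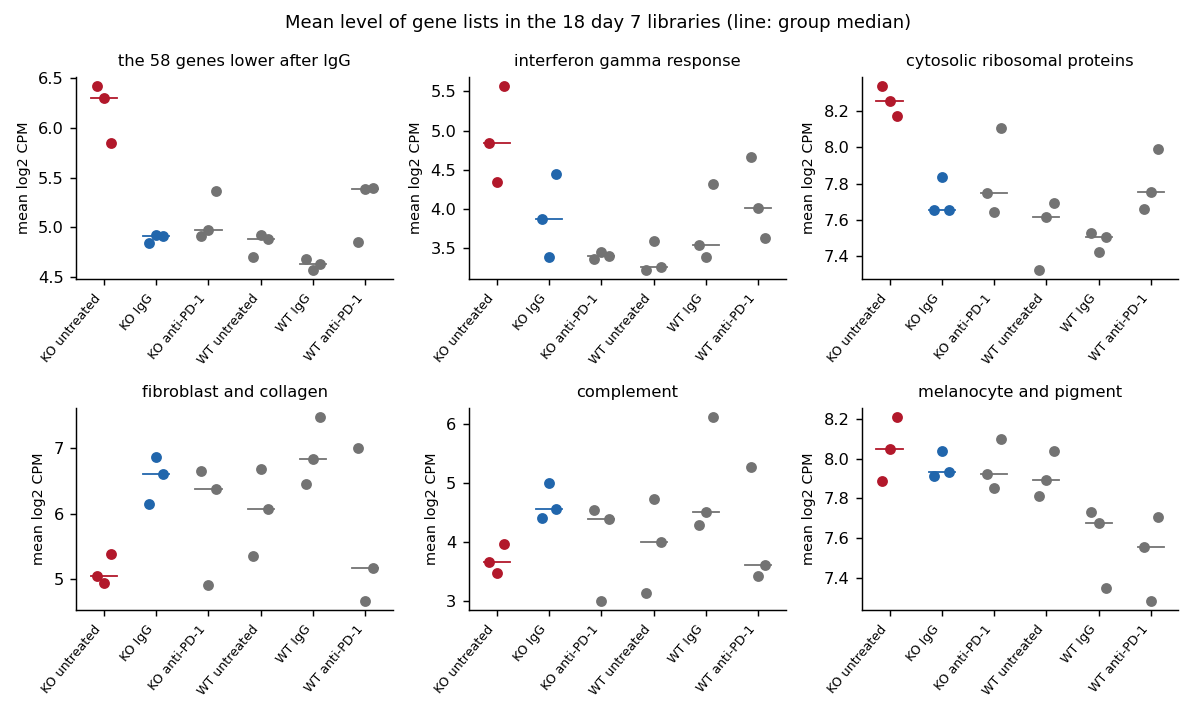
Mean log2 CPM of 6 gene lists in each of the 18 libraries of the second experiment, with a line at each group's median (red, untreated iNOS KO; blue, iNOS KO given IgG; grey, the other 4 groups). Untreated iNOS KO tumors are the highest group for the 58 called genes, which were chosen on these libraries (5.85 to 6.42), and lie at the low end for the fibroblast and collagen genes (4.94 to 5.39), while pigment genes differ little.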

How the data were processed

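Whole-tumor RNA was sequenced with a strand-specific kit. Per the labels and the study's methods, the authors trimmed reads with cutadapt 1.8.1 and aligned them with STAR 2.7.7a to mm10. Genes were quantified with RSEM 1.3.0 on GENCODE vM21. The deposited values are whole-number counts per gene. They are named FeatureCount and not RSEM, so which program produced them is not settled. Libraries were grouped by title. Counts of the 18 day 7 libraries were scaled by trimmed mean of M values, filtered with filterByExpr (minimum count 10) and fitted in 6 groups with the edgeR 4.0.16 quasi-likelihood test (R 4.3.3), with Benjamini-Hochberg adjustment at 0.05. The study itself used DESeq2, run here (1.42.0) as an alternative. The fit was tested on simulated data. Those counts were drawn independently for each gene, without an effect of length or background on a whole library. That test therefore does not bear on calls in libraries with such effects. Named genes were Nos2 and genes of the study's question, per direction up to 15 genes of at least 1 CPM without overlap (called genes by size of change, then by p), up to 4 members of each list by p, up to 5 genes per direction by p for the host difference, and others chosen after their values were seen. The families (ribosome, respiratory chain, proteasome, mitochondrial ribosome, interferon-inducible GTPases) were chosen after the values were seen. Members and lists were chosen with earlier results of these data known. Total counts of 23267834 to 40959309 put the limit that a count of 0 allows (3 counts) at 0.0763 to 0.123 CPM. Promoter windows came from RefSeq (GRCm38.p6). A single gene of the interferon gamma list is counted with the list but not reported here by itself.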

Additional observations from a re-analysis of the deposited data

How the results depend on the processing

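The number of genes called between IgG and untreated iNOS KO tumors depended on the settings, and the cause of the changes was not tested. Against 0 higher and 58 lower, DESeq2 size factors gave 1 and 79, no filter on low counts 373 and 990, the DESeq2 Wald test 46 and 664, the sensory receptor covariate 0 and 0, background subtraction 1 and 60, removal of the length trend 0 and 8, genes of at least 1 CPM 4 and 100, and only the groups compared 177 and 289. The settings on length and on 1 CPM were chosen after seeing the data. Leaving out 1 library gave 0 to 22 higher and 2 to 274 lower genes, with the extremes from IgG tumor 2 and untreated tumor 4. The share of lower genes among those with an unadjusted p under 0.05 was 81.1%, and 58.3% with the covariate, 62.1% at 1 CPM or more and 57.2% in the groups compared alone. For the host difference, 0 and 0 became 43 and 1519 with no filter and 12 and 229 with DESeq2, and leaving out 1 library gave 0 to 1 higher and 0 to 134 lower, with 83 lower without untreated iNOS KO tumor 2.

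Among single genes named, signs turned for 4, none of which passed, and the medians of several lists turned sign as well, most often with the covariate. Irf7 was at -0.42 with the covariate and ran from -0.093 to 0.36 when 1 library was left out. Ifng was at 1.20 with the covariate. Ccl5 ran from -1.38 to 0.0078 and mt-Co2 from -1.90 to 0.46 when 1 library was left out, the high ends without untreated tumors 4 and 2.

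Replicate numbers showed no general pairing: over 36 same-number pairs of the 18 libraries the median correlation of deviations was -0.019, and 7 exceeded 0.1. Only 2 of these pairs join untreated and IgG iNOS KO tumors, at -0.021 and 0.062, too few to decide on pairing within this comparison. With the replicate number as a block, 0 genes were higher and 71 lower, and Irf7 was at -0.027.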

Other observations

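Lists outside the comparisons above gave few calls, and 0 of their genes passed in the edgeR test. Before adjustment 12.7% of all genes were lower and 2.95% higher, and several of these lists changed when untreated tumor 1 was left out. Of 18 B cell and plasma cell genes 2 were lower and 0 higher, with a median of -1.61, which was -0.18 with 0 lower without untreated tumor 1 and 0.32 with the sensory receptor covariate. Of 16 neutrophil genes 3 were lower and 2 higher, with a median of -1.79 that changed sign in 5 of 15 alternatives, to 0.18 without untreated tumor 1, 0.92 with the covariate and 0.32 among genes of at least 1 CPM. Of 23 cytotoxic lymphocyte genes 1 was lower, with a median of -0.86 (-0.05 with the covariate). Of 18 NRF2 target genes 3 were higher and 2 lower, and without untreated tumor 1 these counts were 0 and 2. Of 18 circadian clock genes 3 were higher and 0 lower, and without untreated tumor 1 there was 1 higher. Of 20 endothelial genes 2 were higher and 0 lower, and 0 with the covariate.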
